A study of Mus musculus with 8 samples.

Results

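The genes described here were the heat-shock proteins and molecular chaperones of the mouse, including the Hsp70 cochaperone Bag1. They were picked by name from the gene symbols of the count files, as every symbol that began with Hsp (without the proteoglycan gene Hspg2), Dnaja, Dnajb, Dnajc or Cct, together with the Bag genes. The rule went by name, so it also took Hspb11 and Hspbap1, which are named like small heat-shock proteins but were classed apart from them. This gave 89 genes of the 22609 symbols counted. Their RNA was sequenced from sensory neurons, whose cell bodies sit in the dorsal root ganglia (DRG) along the spinal cord. There were 4 female and 4 male libraries, and the comparison was that of the sexes. All samples came from naïve C57BL/6J mice of 8 to 12 weeks, and the females were in the estrous phase. In both sexes the lectin tracer WGA, coupled to a green dye, had been placed into the hindpaws and thigh muscles of both sides. After 2 days the L3 to L5 ganglia were taken, 6 per sample, and dissociated with enzymes. Cells carrying the tracer were then sorted by flow cytometry, so that each library was a pool of neurons from skin and muscle. No treatment other than the injection was given to either group.

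Chaperones bind proteins that are not yet folded or have lost their fold, and help them reach or regain their shape. Hsp70 proteins do this in cycles of ATP: J-proteins (the Dnaj genes) deliver clients and start ATP hydrolysis, and nucleotide exchange factors such as the Bag and Hsp110 proteins release the client. Hsp90 finishes the folding of kinases and hormone receptors, the CCT ring folds actin and tubulin, and small heat-shock proteins hold clients that would otherwise aggregate. Sensory neurons keep very long axons built of microtubules and neurofilaments, and mutations of several of these genes cause inherited neuropathies.

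The libraries held 4.80 to 7.33 M gene reads each (M, 1e6 reads), and levels are given as counts per M gene reads (CPM). With 3 reads as the floor, a gene was measurable from 0.409 to 0.625 CPM upward, depending on the library, and this floor covers counting error only. Together the chaperone genes took 1.453% to 1.627% of the gene reads. The sorted cells carried neuronal RNA in every library: 15 neuron markers (among them Rbfox3, Tubb3, Snap25 and Scn9a) summed to 25771 to 35796 CPM in females and 25604 to 28798 CPM in males. Of these markers 1 had an unadjusted p under 0.05, the neurofilament gene Nefh, with 527, 1089.6, 1663 and 1155 CPM in females and 280, 625, 598 and 498 CPM in males (log2 fold change 1.13 ± 0.33, unadjusted p 0.00578, adjusted p 0.600), where 7.11% of all tested genes did. Without female 4 there were 3, Nefh in females, against 5.7% of all tested genes, and Prph and Elavl4 in males, against 5.72%. Markers of satellite glia and Schwann cells were present too, and their sum was higher in females. These 15 markers summed to 11921 to 15261 CPM in females and 5661 to 11506 CPM in males. Apoe made up most of that sum, at 8054 to 10873 CPM in females and 3068 to 7796 CPM in males. The 10 fibroblast markers summed to 561 to 839 CPM in females and 226 to 524 CPM in males. Sparc alone had 461 to 687 CPM in females and 181 to 439.7 CPM in males. The 10 macrophage markers summed to 8.94 to 27.9 CPM in females and 3.27 to 10.1 CPM in males, with female 1 in the male range. Of the markers tested, 4 of 13 glial, 5 of 6 fibroblast and 2 of 3 macrophage genes were higher in females. This was at an unadjusted p under 0.05, against 4.44% of all tested genes. In males 0 of them were higher, against 2.67%, and none passed adjustment. Without female 4 the counts higher in females were 4 glial, 2 fibroblast (Dcn and Bgn) and 2 macrophage genes, against 5.7% of all tested genes. In males 1 glial gene was then higher, against 5.72%. The 8 markers of endothelium and blood summed to 3.12 to 5.38 CPM in females 1 to 3, 18.7 CPM in female 4 and 2.97 to 6.95 CPM in males, and among them Cdh5, Hba-a1 and Hbb-b1 had at most 3 reads in any library. Female replicate 4 stood apart from the other libraries, so the counts over all chaperone genes, and a number of list counts and single values, are also given without it.

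The chaperone genes covered a wide range of levels, with the cytosolic Hsp90 gene Hsp90ab1 far above the rest. To compare genes, reads were divided by the length of the longest coding transcript, giving reads per kilobase and M gene reads (RPKM, mean over the 8 libraries). On this scale 17 genes were above 100, 36 lay between 10 and 100, 24 between 1 and 10, and 12 at or under 1. Hsp90ab1 stood at 1649 ± 144 RPKM (SD, n = 8), ranked 9 among all genes by mean CPM, and took 26.1% to 30.7% of all chaperone reads of a library. The next gene was Hspb8, a small heat-shock protein that acts with Bag3 in clearing damaged proteins, at 459.9 ± 46.2 RPKM. Hsp90ab1 was 3.59-fold above it, and no library of the one overlapped any library of the other.

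Behind this pair came subunits of the CCT ring. Cct5 (255 ± 33.0 RPKM), Cct7 (230.2 ± 28.4), Cct8 (224 ± 19.4) and Cct6a (219 ± 17.8) followed each other within their spread over libraries. Bag3 (205 ± 15.9 RPKM), Cct3 (184 ± 14.5), the ER chaperone Hspa5 (165 ± 18.2) and the constitutive cytosolic Hsp70 gene Hspa8 (155 ± 22.1) came next. The order within these neighbours depended on the length used: with the length of all exons of a gene, Cct3 moved from rank 8 to rank 17 and Hspa8 from 10 to 16.

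**Figure D1:**
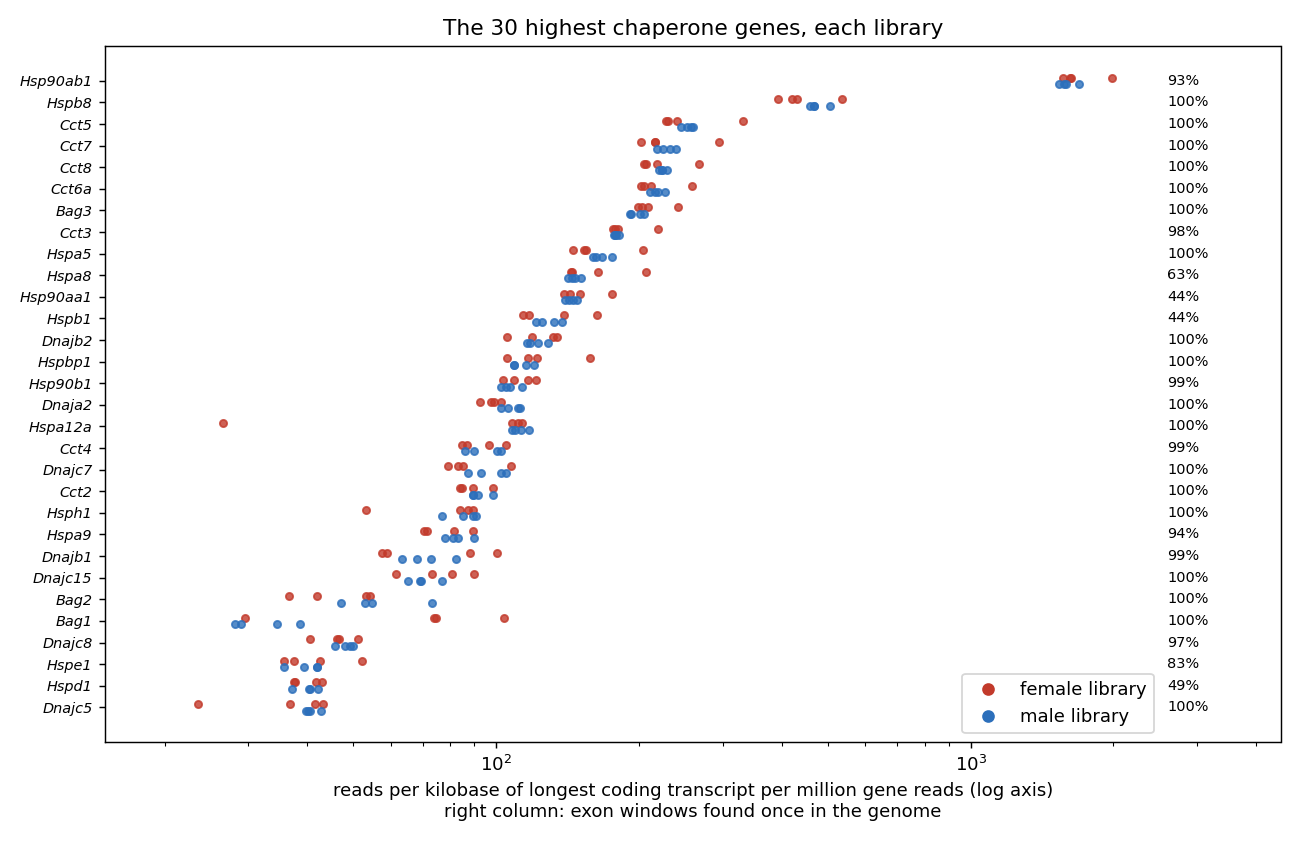
Level of the 30 highest chaperone genes in each library, in reads per kilobase of the longest coding transcript and M gene reads on a log axis (red points are female libraries, blue points male libraries). Hsp90ab1 stood at a mean of 1649 and Hspb8 at 459.9, and the percentages at the right give the share of each gene's 50-base exon windows that occur once in the genome, which is lowest for Hsp90aa1 (43.8%) and Hspb1 (44.4%) among those shown.

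Several of these levels were limited by near-identical copies in the genome. HTSeq-count leaves out reads that were placed at more than 1 position, and such alignments numbered 8569168 to 13297230 per library. For 14 chaperone genes fewer than 90% of the 50-base windows of their exons occurred once in the mm9 genome, and for 5 of them fewer than 50%. These 5 were the stress-inducible Hsp70 genes Hspa1b (37.7%) and Hspa1a (39.0%), the inducible Hsp90 gene Hsp90aa1 (43.8%), the small heat-shock gene Hspb1 (44.4%) and the mitochondrial chaperonin gene Hspd1 (49.1%). Hspa8 (62.7%) and the J-protein gene Dnajb6 (51.2%) were also affected, so the levels of all 7 are uncertain and may be too low. Exons of 23 chaperone genes also overlapped a gene on the other strand, whose reads cannot be told apart where counting ignored strand.

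At the low end, 7 chaperone genes had at most 3 reads in every library, and Dnajb8 and Dnajc5g had none in any library. Hspb3, a muscle small heat-shock protein in which mutations cause a motor neuropathy, had at most 1 read. In all, 78 of the 89 genes had enough reads to be tested. The 11 others were Cct8l1, Dnajb7, Dnajb8, Dnajb13, Dnajc5g, Dnajc22, Dnajc25, Hspb2, Hspb3, Hspb7 and Hspb9. Among these 11, Dnajc25 had 0.687, 3.30, 1.04 and 1.68 CPM in females 1 to 4 and 0.273, 0.594, 0.330 and 0.592 CPM in males 1 to 4, or 2 to 19 reads per library, and its sexes did not overlap.

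With all 8 libraries the median sex difference of the chaperone genes was close to 0, and single genes went both ways. Bag1 was higher in 3 of the 4 female libraries than in any male library, while Dnajc5b, Bag4, Dnaja1 and Dnajc12 leaned to males and Bag6 and Dnaja4 to females. By edgeR's quasi-likelihood test, 7 of the 78 tested genes had an unadjusted p under 0.05, or 8.97%, against 7.11% of the 12518 genes tested. Of these, 3 were higher in females (Bag1, Bag6 and Dnaja4), against 4.44% of all tested genes, and 4 were higher in males (Bag4, Dnaja1, Dnajc12 and Dnajc5b), against 2.67%. After Benjamini-Hochberg adjustment over all tested genes, 0 of the 78 passed 0.05, where 0.0879% of all tested genes did. DESeq2 gave the same 7 genes at the unadjusted threshold, against 7.42% of all tested genes, and also 0 after adjustment, against 0.383%. The median log2 fold change, female over male, was -0.016 over the 78 genes and 0.003 over all tested genes. Of the 78, 35 had a log2 fold change above 0 and 43 below. Without female 4, 79 were tested, and 3 were higher in females and 11 in males at the unadjusted threshold. The shares of all tested genes were then 5.7% and 5.72%.

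The values of single libraries gave a similar count. All 4 females lay above all 4 males for 2 tested genes (Dnaja4 and Hspbap1), against 3.0% of all tested genes. All males lay above all females for 4 (Bag4, Dnaja1, Dnaja2 and Dnajb5), against 2.52%. Each sample held 6 ganglia, the L3 to L5 ganglia of both sides, which is what 1 mouse has. The labels do not state that the samples came from separate animals, and if they did not, p-values measure only the spread between these samples. In such bulk samples, fewer cells of a type and less RNA per cell cannot be told apart. The sums of glial, fibroblast and macrophage markers and the level of Nefh are given above by sex, and apart from the glial score their part in these counts was not tested. With the glial marker score of each library added to the fit, 1 of the 78 genes (Bag1) was higher in females at an unadjusted p under 0.05 and 0 were higher in males, against 1.19% and 1.3% of all tested genes. In that fit 0 of the 78 passed adjustment, against 0.032%. The log2 fold changes in it were -0.36 for Bag4, 0.37 for Bag6, -0.25 for Dnaja1 and 0.32 for Dnaja4, none of them under 0.05 in unadjusted p.

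**Figure D2:**
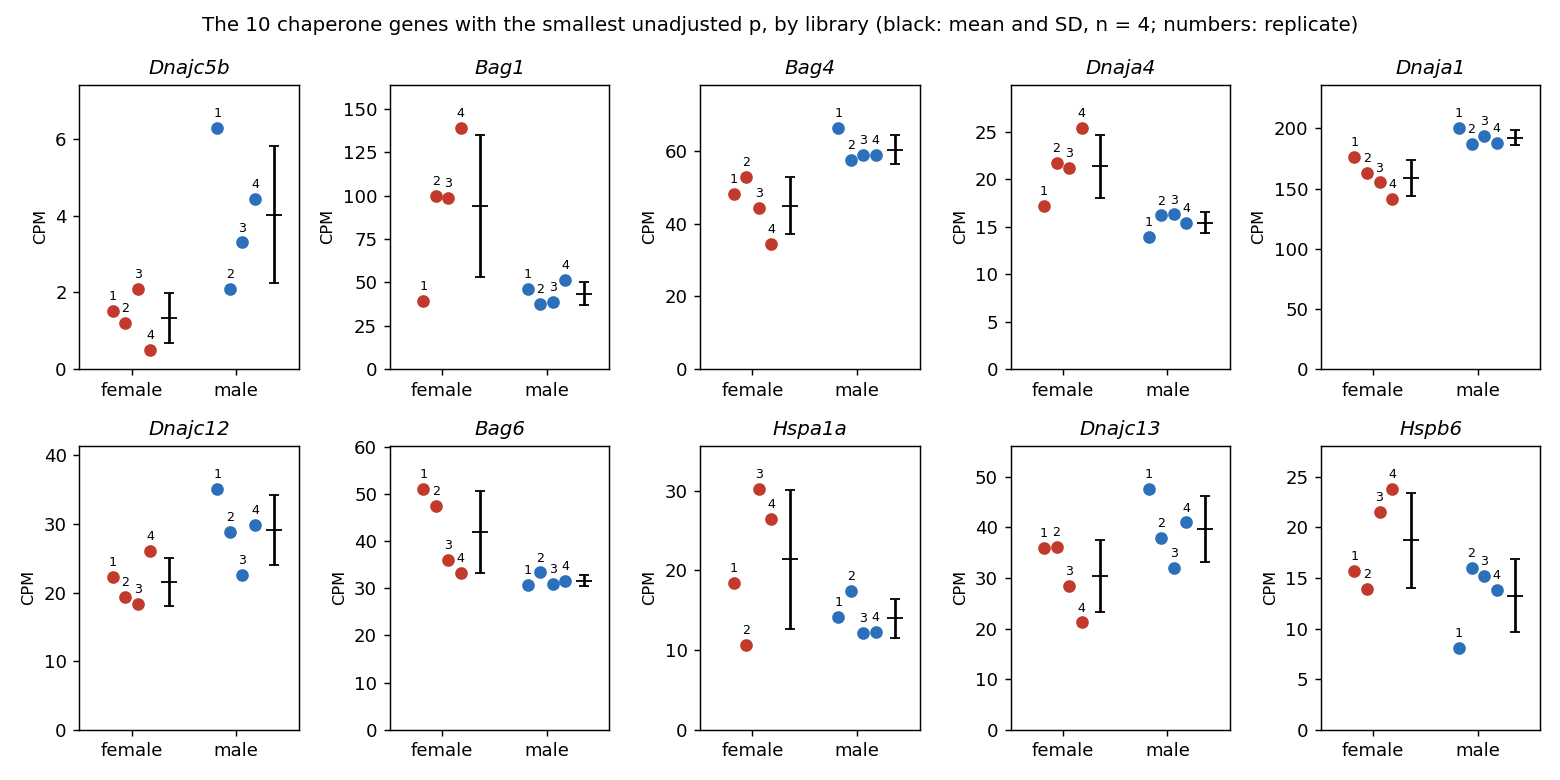
CPM of the 10 chaperone genes with the smallest unadjusted p in each female (red) and male (blue) library, with the mean and SD (n = 4) in black and the replicate number above each point. Bag1 was at 39.5 CPM in female 1 and at 99.0 to 139 CPM in the other females, against 37.7 to 51.6 CPM in males, and the sexes did not overlap for Bag4, Dnaja4 and Dnaja1.

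Bag1, an exchange factor of Hsp70 that also links it to the proteasome, had 39.5, 99.8, 99.0 and 139 CPM in females 1 to 4 and 46.1, 37.7, 38.8 and 51.6 CPM in males 1 to 4. Female 1 sat among the males, and females 2 to 4 were all above the highest male. The mean was 94.4 ± 41.2 CPM (SD, n = 4) in females and 43.6 ± 6.54 CPM in males, and the log2 fold change was 1.09 ± 0.30 (SE), with a 95% interval of 0.42 to 1.77. The unadjusted p was 0.00451 and the adjusted p 0.563 (edgeR), and Bag1 ranked 95 by p among all tested genes. Without female 1 the log2 fold change was 1.36 with an adjusted p of 0.00584. In that fit Bag1 was the 1 chaperone gene of 77 to pass adjustment, where 0.668% of all tested genes passed. Genes higher in females after adjustment numbered 70 in that fit and 3 with all libraries. Female 1 was the 1 female within the male range of Bag1, so that fit is no independent support for a sex difference of Bag1. Without female 4 the log2 fold change was 0.85, with an adjusted p of 0.341. With the glial score in the fit it was 1.16.

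All 50-base windows of the Bag1 exons occurred once in the genome, and no other annotated gene overlapped them. Bag1 lies on the minus strand of mm9 chromosome 4 (chr4:40883431-40895314), and its first exon starts 125 bases from the first exon of Chmp5, a gene of the membrane-sorting ESCRT machinery that runs the other way (chr4:40895440-40912336). The sequence between both starts is shown because the 2 genes share it while their levels differed between libraries. It is written on the plus strand of NCBIM37 (mm9), chr4:40895315-40895439, and 67.2% of its bases are G or C.
Bag1 to Chmp5 interval: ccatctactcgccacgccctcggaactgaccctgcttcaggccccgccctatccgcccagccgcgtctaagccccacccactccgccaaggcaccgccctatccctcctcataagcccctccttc
Chmp5 had 163, 157, 134 and 195 CPM in females and 176, 161, 166 and 169 CPM in males, with a log2 fold change of -0.07. The next gene beyond Chmp5, Nfx1, also had a log2 fold change of -0.07, with 34.4 to 53.7 CPM over the 8 libraries.

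The other Bag genes went in both directions. Bag4, which holds the death domain of TNF receptors silent, had 48.1, 52.9, 44.4 and 34.4 CPM in females and 66.3, 57.6, 58.9 and 58.9 CPM in males. Every male was above every female, with a log2 fold change of -0.45 ± 0.15 and an unadjusted p of 0.0122 (adjusted p 0.637, edgeR). Of the Bag4 exon bases, 1042 are shared with Gm17484 on the other strand. Bag6, which guards membrane proteins on their way to the ER, had 51.1, 47.5, 36 and 33.2 CPM in females and 30.7, 33.4, 31.0 and 31.5 CPM in males. Females 1 to 3 were above every male and female 4 was within the male range, and the log2 fold change was 0.39 ± 0.16 (unadjusted p 0.0315). Bag3, the partner of Hspb8 in autophagy, was the highest Bag gene, with 542, 515, 526 and 627 CPM in females and 521, 498, 532 and 497 CPM in males. Its log2 fold change was 0.09 ± 0.10, with a 95% interval of -0.13 to 0.30. Bag2, an inhibitor of the ubiquitin ligase Chip, ranged from 68.1 to 101 CPM in females and from 87.7 to 136 CPM in males, and Bag5, which acts on the Parkinson's disease protein parkin, from 56.0 to 80.4 and from 57.0 to 66.3 CPM.

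Among the J-proteins that work with cytosolic Hsp70, 2 of the 4 DnajA genes had an unadjusted p under 0.05, 1 in each direction, against 4.44% of all tested genes for females and 2.67% for males. Without female 4 Dnaja2 joined them, which gave 2 in males, against 5.72%. Dnaja1, which helps proteins into mitochondria, had 176, 163, 155 and 141 CPM in females and 200.1, 187, 194 and 188 CPM in males. All males were above all females, at a log2 fold change of -0.30 ± 0.11 (unadjusted p 0.0173, adjusted p 0.637). With the length trend of each library removed it was -0.17, no longer under 0.05 in unadjusted p. Dnaja4, a relative with the same build, was lower in level and went the other way, with 17.2, 21.7, 21.2 and 25.4 CPM in females and 13.9, 16.2, 16.3 and 15.4 CPM in males. All females were above all males, at a log2 fold change of 0.45 ± 0.16 (unadjusted p 0.0163, adjusted p 0.637). Both genes share exon bases with a gene on the other strand, Dnaja4 1581 bases with Wdr61 and Dnaja1 857 bases with Smu1 and Gm6297. Dnaja2, the highest of the class at 103 ± 6.78 RPKM, had 290.5, 277, 263 and 280.5 CPM in females and 319, 316, 291 and 301 CPM in males, so that males were above females by a narrow margin (unadjusted p 0.103). The mitochondrial Dnaja3 overlapped between the sexes.

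Of the 13 DnajB genes 10 were tested, and 0 of them had an unadjusted p under 0.05 by edgeR, against 7.11% of all tested genes, or an adjusted p under 0.05, against 0.0879%. The highest was Dnajb2, a neuronal J-protein that sends clients to the proteasome and is mutated in a motor neuropathy, with 187, 147, 166 and 184 CPM in females and 164, 179, 171 and 162 CPM in males. Dnajb1, the main stress-inducible J-protein of the cytosol, had 133, 130.3, 199 and 227 CPM in females and 186, 165, 154 and 143 CPM in males. Females 1 and 2 were below every male and females 3 and 4 above every male. Log2 fold changes of the class lay between -0.19 and 0.17.

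The DnajC genes, the most varied J-proteins, held the largest difference between the sexes by fold. Dnajc5b, a relative of the synaptic vesicle chaperone cysteine string protein, had 1.51, 1.21, 2.08 and 0.505 CPM in females and 6.28, 2.08, 3.30 and 4.44 CPM in males. Female 3 and male 2 were level, and all other males were above all females. The log2 fold change was -1.63 ± 0.45, with a 95% interval of -2.62 to -0.64, an unadjusted p of 0.00404 and an adjusted p of 0.563 (edgeR). This gene had 3 to 46 reads per library, and 82.0% of its exon windows occurred once in the genome. Dnajc12, a cochaperone of the enzymes that make monoamine transmitters, had 22.3, 19.4, 18.3 and 26.1 CPM in females and 35.1, 28.8, 22.6 and 29.9 CPM in males. Male 3 fell within the female range and the other males lay above it, with a log2 fold change of -0.45 ± 0.17 (unadjusted p 0.0232). With the glial score in the fit, the log2 fold change was -0.98 for Dnajc5b and -0.15 for Dnajc12, and neither had an unadjusted p under 0.05.

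Other DnajC genes act on membranes and at the synapse. Dnajc13, which works on endosomes and was the next of the class by p, had 36, 36.1, 28.5 and 21.2 CPM in females and 47.6, 37.9, 32 and 41.0 CPM in males, with a log2 fold change of -0.40 ± 0.19 (unadjusted p 0.0666) with all libraries and -0.26 without female 4. Dnajc5, cysteine string protein itself, had 273, 242, 284 and 155 CPM in females and 261, 281, 264 and 266 CPM in males. Dnajc6, the neuronal auxilin that uncoats clathrin vesicles, had 241, 227, 201 and 73.8 CPM in females and 226, 235, 209 and 219 CPM in males. In both genes female 4 was the lowest library, and the other 7 libraries overlapped. Of the 6 synaptic and vesicle J-proteins listed (Dnajc5, Dnajc6, Dnajc13, Dnajb2, Dnajb5 and Dnajb6), 0 had an unadjusted p under 0.05, against 7.11% of all tested genes. Their summed level was 469 CPM in female 4 and 684 to 771 CPM in the other libraries. The DnajC gene highest per length was Dnajc7, which passes clients between Hsp70 and Hsp90, at 92.8 ± 10.9 RPKM, and by the length of all exons it was the mitochondrial Dnajc15.

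**Figure D3:**
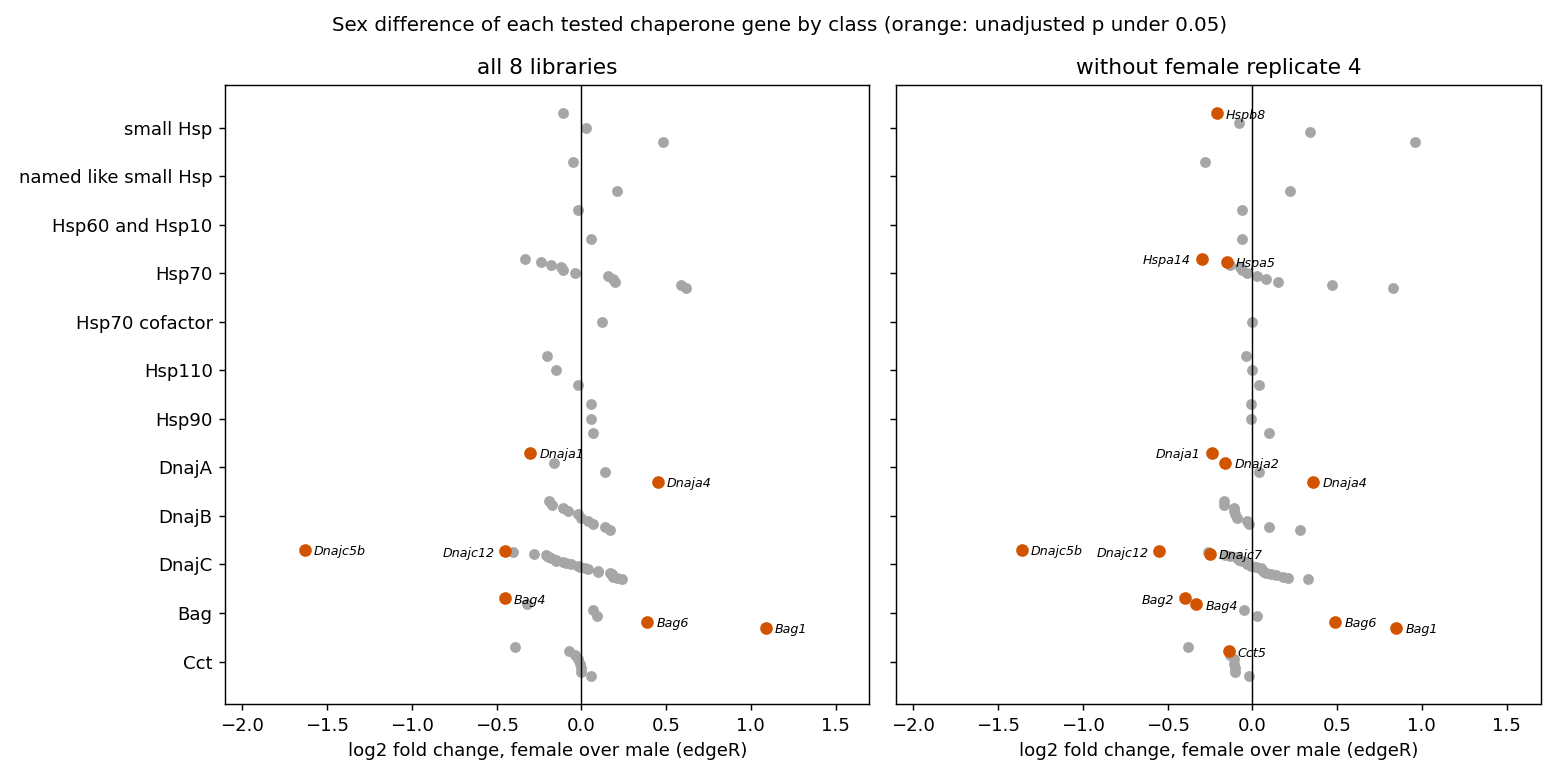
Log2 fold change, female over male, of each tested chaperone gene by class, from all 8 libraries (left) and without female replicate 4 (right), with genes at an unadjusted p under 0.05 in orange and named. With all libraries 3 genes were higher in females and 4 in males, against 4.44% and 2.67% of all tested genes. Without female 4 these were 3 and 11, against 5.7% and 5.72%.

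In the Hsp70 class 0 of 11 genes had an unadjusted p under 0.05 by edgeR, against 7.11% of all tested genes. Without female 4 there were 2, both higher in males (Hspa14 and Hspa5), against 5.72%. Hspa8, the constitutive cytosolic Hsp70, had 346, 344, 392 and 496 CPM in females and 360.5, 346, 339.7 and 351 CPM in males, a log2 fold change of 0.16 ± 0.13 with a 95% interval of -0.12 to 0.44. Females 3 and 4 were above every male, and females 1 and 2 were within the male range. Without female 4 its log2 fold change was 0.03. The stress-inducible Hspa1a was far lower, at 18.4, 10.6, 30.2 and 26.4 CPM in females and 14.1, 17.4, 12.1 and 12.3 CPM in males. Female 2 was the lowest library and the other females were all above the highest male, with a log2 fold change of 0.59 ± 0.29 (unadjusted p 0.0653). Its near-identical copy Hspa1b had 0.444 to 3.75 CPM, or 3 to 18 reads per library. Immediate early genes, which respond within minutes to stimulation and to tissue dissociation, are given beside it: 10 of them summed to 580, 405, 1150.4 and 1231 CPM in females and 638, 972, 665 and 589.7 CPM in males. Female 2 was the lowest library for both, and females 3 and 4 the highest. The part of dissociation in the Hspa1a values was not tested.

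Hspa12a, a distant Hsp70 relative abundant in neurons, had 638, 619.5, 650.2 and 152 CPM in females and 619, 647, 673 and 629 CPM in males. Female 4 had 0.239 times the mean of the other females, and the other 7 libraries were within a narrow range. The mitochondrial Hsp70 Hspa9 ranged from 215 to 272 CPM in females and from 238 to 274 CPM in males.

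The Hsp110 proteins are exchange factors of Hsp70 that also untangle aggregates. Hsph1 was the highest of them per length, with 319, 331, 339 and 202 CPM in females and 324, 292, 345 and 340.2 CPM in males. Hspa4l had 198, 188, 189 and 112 CPM in females and 191 to 199.7 CPM in males. Female 4 was the lowest library for both and the other libraries overlapped. Of the 10 genes listed as exchange factors of Hsp70 (the Bag genes, Hspbp1 and the Hsp110 genes), 2 were higher in females (Bag1 and Bag6) and 1 in males (Bag4) at an unadjusted p under 0.05, against 4.44% and 2.67% of all tested genes. Without female 4 there were 2 in each direction, with Bag2 added in males, against 5.7% and 5.72%. Of these 10 genes 0 passed adjustment, against 0.0879%. Their summed level lay at 1621 to 1662 CPM in females and 1563 to 1642 CPM in males.

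The 3 Hsp90 genes were nearly level between the sexes. Hsp90ab1 had 4096, 4088, 3948 and 4998 CPM in females and 4271, 3869.5, 4009 and 3960 CPM in males. Its log2 fold change was 0.07 ± 0.10 with a 95% interval of -0.16 to 0.29, and without female 4 it was -0.01. The inducible Hsp90aa1 had 469.6, 494, 456 and 575 CPM in females and 486, 458, 476 and 468 CPM in males. Female 4 was the highest library for both genes.

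Small heat-shock proteins were represented mainly by Hspb8 and Hspb1. Hspb8 had 783, 764, 713 and 974 CPM in females and 918, 851, 831 and 848 CPM in males. Females 1 to 3 were below every male, and female 4 was above every male. The log2 fold change was -0.11 ± 0.11 (unadjusted p 0.329) with all libraries and -0.21 ± 0.06 (unadjusted p 0.0072, adjusted p 0.315) without female 4. Hspb1, which protects axons and is mutated in a hereditary motor neuropathy, had 109, 106, 129 and 152 CPM in females and 116, 113, 123 and 128 CPM in males. Hspb6, a small heat-shock protein known from muscle, had 15.7, 13.9, 21.5 and 23.8 CPM in females and 8.05, 16, 15.2 and 13.8 CPM in males, and its log2 fold change was 0.48 ± 0.25 (unadjusted p 0.0803) and 0.03 with the glial score in the fit. Of the 5 inherited neuropathy chaperones listed (Hspb1, Hspb3, Hspb8, Dnajb2 and Bag3), 4 were tested and 0 had an unadjusted p under 0.05, against 7.11% of all tested genes. Without female 4 there was 1 (Hspb8), against 5.72% for males. Their summed level was 1532 to 1937 CPM in females and 1636 to 1719 CPM in males.

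The CCT ring folds tubulin and actin. The 7 ring genes named Cct2 to Cct8, with Cct6a as the general form of its subunit, and without Tcp1, which the name rule did not take, summed to 2502, 2524, 2574 and 3290.2 CPM in females and 2751, 2683, 2636 and 2710.3 CPM in males. Females 1 to 3 were below every male, and female 4 was above every male. Cct5 had 432, 436, 455 and 629 CPM in females and 493, 464, 487 and 479.7 CPM in males, with the same arrangement. With all libraries 0 of the 7 had an unadjusted p under 0.05 by edgeR, against 7.11% of all tested genes, and their 95% intervals lay between -0.29 and 0.28 on the log2 scale. Without female 4 the median log2 fold change of the 7 was -0.11, and 1 (Cct5, -0.14 ± 0.06) was higher in males at an unadjusted p under 0.05, against 5.72%. Cct4 (210.1 to 260.3 CPM) and Cct2 (165 to 193 CPM) were the lowest of the ring by the length of the longest coding transcript, and by the length of all exons Cct4 and Cct3 were. The testis form Cct6b had 1.63 to 3.96 CPM.

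Of the 8 mitochondrial chaperones listed, 0 had an unadjusted p under 0.05 by edgeR, against 7.11% of all tested genes. The chaperonin gene Hspd1 (Hsp60) had 101, 91.1, 90.8 and 104 CPM in females and 89.8, 102, 97.6 and 98.2 CPM in males. Its partner Hspe1 (Hsp10) had 32.9, 29, 27.7 and 40.3 CPM in females and 27.7, 32.4, 32.5 and 30.5 CPM in males. Both genes start back to back on chromosome 1 and their exons in GENCODE M1 overlap by 112 bases. The 8 mitochondrial chaperones listed summed to 587 to 697 CPM in females and 625 to 683 CPM in males.

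The promoters of stress-responsive chaperones are known for sequence elements that stress factors bind, and RefSeq promoters (250 bases before to 50 after the start, GRCm38.p6) were searched on both strands for the letters of 2 of them. Promoters were found for 73 of the 89 genes. The heat-shock element was written as GAA, TTC and GAA with 2 bases of any kind between each pair, and it was present for 4 of the 73 (Dnajb6, Hspd1, Hspe1 and Hsph1), against 0.662% of 27025 genes. Of the 8 heat-shock inducible genes with a promoter entry, 3 held it, and Hspa1a, Hspa1b, Dnajb1, Hspb1 and Bag3 had no match in this window. The 30 bases around the elements of Hspd1 and Hspe1 are shown because the same letters lie upstream of both RefSeq starts. In GENCODE M1 they fall in an exon of an alternative Hspd1 transcript. They are written on the plus strand, GRCm38.p6 chr1:55088053-55088082, and capitals mark 2 overlapping matches.
Hspd1 and Hspe1 elements: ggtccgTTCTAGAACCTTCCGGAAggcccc
For neither gene did the sexes separate.

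The other motif was the ER stress element, through which the unfolded protein response acts, written as CCAAT and CCACG with 9 bases of any kind between them. It was present for 3 of the 73 genes (Hspa5, Hsp90b1 and Dnajc3), against 0.137% of 27025 genes. The other 4 ER chaperones of the list with a promoter entry (Dnajb9, Dnajb11, Dnajc1 and Dnajc10) had no match in this window. All 3 encode chaperones of the endoplasmic reticulum (ER), where receptors and channels of the neuron are folded. The sequences upstream of their starts are shown 5′ to 3′ along each gene with the element in capitals, at GRCm38.p6 chr2:34771970-34772089 (plus strand), chr14:118937812-118937931 (plus strand) and chr10:86705510-86705669 (minus strand).
Hspa5 upstream: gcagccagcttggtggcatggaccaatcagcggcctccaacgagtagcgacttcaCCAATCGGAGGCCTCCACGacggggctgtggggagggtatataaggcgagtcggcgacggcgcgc
Dnajc3 upstream: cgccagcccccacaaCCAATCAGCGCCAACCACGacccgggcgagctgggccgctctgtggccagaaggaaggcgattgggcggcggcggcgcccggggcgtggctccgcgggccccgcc
Hsp90b1 upstream: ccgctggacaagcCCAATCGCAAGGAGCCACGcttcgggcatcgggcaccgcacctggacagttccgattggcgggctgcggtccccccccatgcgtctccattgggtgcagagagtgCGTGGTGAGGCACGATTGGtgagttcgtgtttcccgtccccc

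Hspa5 (BiP), the ER Hsp70, had 379, 404, 399.6 and 533 CPM in females and 436, 419, 458 and 424 CPM in males. Females 1 to 3 were below every male, and female 4 was above every male. The log2 fold change was -0.04 ± 0.12 with all libraries and -0.15 ± 0.07 (unadjusted p 0.0421, adjusted p 0.416) without female 4. Hsp90b1, the ER Hsp90, had 342, 329, 308 and 292 CPM in females and 296, 289, 302 and 319.6 CPM in males. Dnajc3, a J-protein that also restrains the translation kinase Perk, had 112, 109, 88.7 and 58.8 CPM in females and 105, 115, 99.2 and 99.0 CPM in males. Female 4 was thus the highest library for Hspa5 and the lowest for Dnajc3. Dnajc10, which reduces disulfide bonds in the ER, had 109, 123, 120.2 and 48.5 CPM in females and 103 to 121 CPM in males, and Hspa13 had 19.0 to 37.3 and 33.1 to 38.2 CPM.

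As a group, the 8 ER chaperones listed summed to 1069.8 to 1107 CPM in females and 1093 to 1126 CPM in males, and 0 had an unadjusted p under 0.05 by edgeR, against 7.11% of all tested genes. The remaining members of the list, Dnajb11 (54.8 to 85.9 CPM over all libraries), Dnajb9 (36.6 to 50) and Dnajc1 (11.3 to 20.2), overlapped between the sexes. The 10 heat-shock inducible genes listed (Hspa1a, Hspa1b, Dnajb1, Hsph1, Hsp90aa1, Hspb1, Bag3, Hspa8, Hspd1 and Hspe1) also gave 0 at the unadjusted threshold, against the same share, with a median log2 fold change of 0.06 with all libraries and 0.00 without female 4. Their summed level was 2072, 2053, 2193 and 2451 CPM in females and 2127, 2026, 2114 and 2069 CPM in males.

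Female replicate 4 had a different profile of chaperone genes from the other females, and the difference followed transcript length. Its log2(CPM + 1) was compared with the mean of females 1 to 3 for the 78 tested genes. Hspa12a (-2.06), Dnajc27, a small GTPase with a J-domain (-1.62), Dnajc6 (-1.58) and Dnajc10 (-1.25) were lower by more than 1, where 12.2% of all tested genes were. The longest coding transcripts of these 4 had a median of 4993.5 bases, against 2491.5 bases for the other 74. Across the 78 genes, Spearman's rho of the departure with transcript length was -0.56 in female 4 and -0.55 over 12393 genes with exon length. In the males, each against the mean of the other males, it was -0.13 to 0.08 across the 78 genes. In females 1 to 3 it was 0.28 to 0.49, but the mean that each was set against held female 4. Genes of 1 library are not independent replicates and share its depth and normalization, so these values describe the library.

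**Figure D4:**
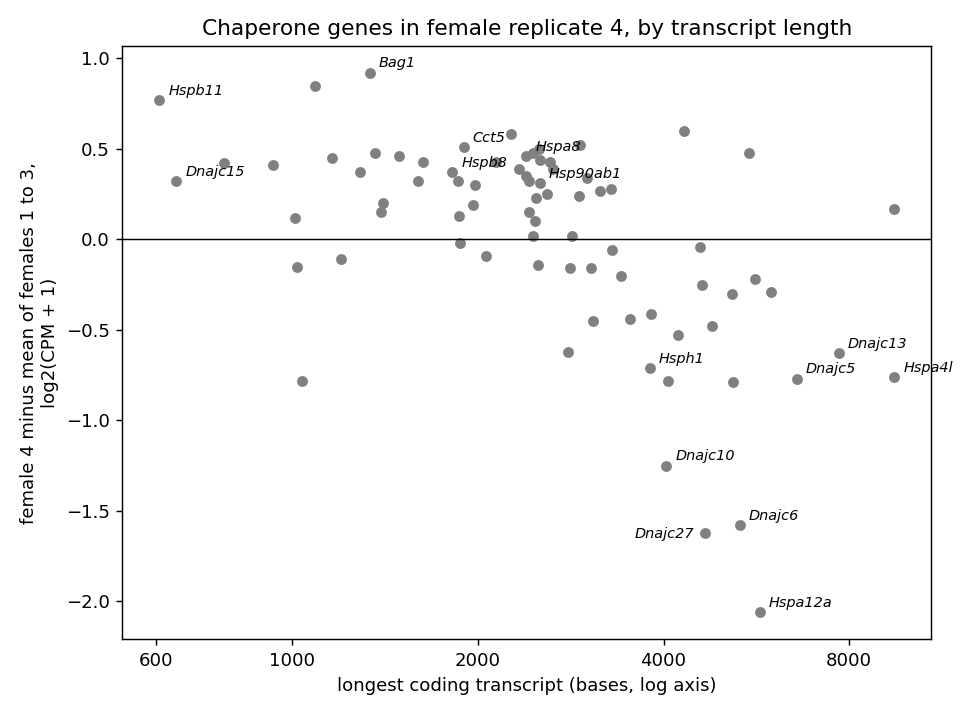
Difference of female replicate 4 from the mean of females 1 to 3 in log2(CPM + 1) for the 78 tested chaperone genes, against the length of the longest coding transcript in bases on a log axis. Short transcripts such as Hspb11 and Dnajc15 lie above 0, and Hspa12a (-2.06), Dnajc27, Dnajc6 and Dnajc10 are the 4 genes below -1.

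The spread among females was smaller without this library. The median coefficient of variation of the tested chaperone genes was 16.6% in females, 8.68% in females without replicate 4 and 7.09% in males. For the CCT genes it was 11.5%, 3.50% and 3.55%. Without female 4, 79 chaperone genes were tested. Then 3 were higher in females at an unadjusted p under 0.05 (Bag1, Bag6 and Dnaja4), against 5.7% of all tested genes, and 11 were higher in males, against 5.72%. These 11 were Bag2, Bag4, Cct5, Dnaja1, Dnaja2, Dnajc12, Dnajc5b, Dnajc7, Hspa14, Hspa5 and Hspb8. Their log2 fold changes ran from -1.36 for Dnajc5b to -0.14 for Cct5, and all but Dnajc5b, Dnajc12, Bag2, Bag4 and Hspa14 were between -0.25 and -0.14. All males lay above the remaining 3 females for 12 genes, against 5.73% of all tested genes, and all 3 females above all males for 4, against 6.03%. By edgeR 0 of the 79 passed adjustment, where 0.102% of all tested genes did. Without female 4 the sum of the glial markers still differed in the same direction, at 11921 to 12096 CPM in females and 5661 to 11506 CPM in males.

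When the length trend of each library was removed in place of leaving the library out, 3 genes were higher in females, against 5.33% of all tested genes, and 7 in males (Bag2, Bag4, Dnaja2, Dnajc12, Dnajc13, Dnajc5b and Hspb8), against 4.2%. Bag2, Dnaja2 and Hspb8 were thus called for males in both ways of treating female 4 and not with all libraries as they are.

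Genes that work with the chaperones were given by lists. Of the 3 heat-shock factors (Hsf1, Hsf2 and Hsf4), the transcription factors of the heat-shock response, 0 had an unadjusted p under 0.05. Of the 21 cochaperones of Hsp90 and Hsp70 such as Stip1 and Stub1, 0 did, where 7.11% of all tested genes did. Of the 11 chaperonin-related and prefoldin genes tested, among them the ring subunit gene Tcp1, 1 did: Vbp1, a prefoldin subunit that hands tubulin to the CCT ring, had 138, 135, 119 and 142 CPM in females and 173, 167, 165 and 161 CPM in males. All males were above all females, with a log2 fold change of -0.34 ± 0.10, an unadjusted p of 0.00612 and an adjusted p of 0.600. That is 1 of 11, where 2.67% of all tested genes were higher in males. Without female 4 there were 3 of these genes higher in males (Vbp1, Pfdn4 and Pdcl3), against 5.72%. Of the 5 other J-proteins and crystallins tested, the mitochondrial Hscb was higher in males (-0.34 ± 0.15, unadjusted p 0.0468) and the small heat-shock protein Cryab in females (0.63 ± 0.26, unadjusted p 0.0359). In all tested genes the shares were 2.67% for males and 4.44% for females. Without female 4 neither Hscb (log2 fold change -0.33) nor Cryab (0.50) had an unadjusted p under 0.05. Cryab had 92.9, 97, 107 and 139 CPM in females and 34.7, 78.4, 96.3 and 69.2 CPM in males. Male 1 had the least Cryab and the lowest sum of glial markers (5661 CPM). The log2 fold change of Cryab was -0.01 with the glial score in the fit and 0.41 without male 1. The part of glial RNA in the Cryab values was not tested. None of these related genes passed adjustment, and the 10 genes of the unfolded protein response listed summed to 866 to 992 CPM over the 8 libraries.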

How the data were processed

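The single reads of 50 bases had been placed on mm9 by the authors using TopHat2, and HTSeq-count had assigned them to genes. The deposited values are these raw counts per gene symbol, with no normalization. Tool versions, the annotation and the strand option are not given in the sources used here. The libraries were made with the SMART-seq2 protocol (oligo-dT priming and PCR, no molecular identifiers). Summary lines of the counting program were left out of the totals; reads outside features were 57.77% to 60.47% of the uniquely placed reads, and 39.38% to 42.06% fell in genes.

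CPM was computed per library from the remaining 22609 symbols. Sex was tested on the counts with edgeR 4.0.16 in R 4.3.3 (quasi-likelihood test, TMM factors, filterByExpr on sex, all 8 libraries, no covariate). Benjamini-Hochberg adjustment covered all 12518 genes that passed the filter. Standard errors were taken from the F statistic, and 95% intervals from the t distribution with the total degrees of freedom of the fit. The fit was tested on simulated data. DESeq2 1.42.0 was an alternative, as were DESeq2 size factors, library size alone, 2 other count filters, each library left out, the replicate number as a block, a glial marker score (mean log2 CPM of 13 markers) and the removal of each library's smooth trend with exon length (lowess span 0.3). Lengths and positions came from GENCODE M1 on NCBIM37 (mm9), which held all 89 genes. Promoters came from RefSeq on GRCm38.p6, and no coordinates were converted between the builds. Those of Bag4, Cct4, Dnajc11, Dnajc12, Dnajc18, Dnajc2, Dnajc22, Dnajc30, Dnajc5, Dnajc5b, Hsp90aa1, Hsp90ab1, Hspa13, Hspa8, Hspa9 and Hspb2 were not analysed here.

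The genes and the lists were chosen with earlier results of these data known. Single genes were named by rule: Bag1, the members of the heat-shock inducible, ER chaperone, CCT ring and neuropathy lists, the highest gene per length of each class, the 10 tested genes with the smallest unadjusted p, and related genes with an unadjusted p under 0.05. Other genes that the text names were added after their values were seen. No pair of samples of 1 sex agreed within counting noise (chi-square per degree of freedom of 2.90 to 48.01), and none was merged. That test covers counting error only, and PCR copies without molecular identifiers are not independent molecules.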

Additional observations from a re-analysis of the deposited data

Results flagged for a closer look

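In 8 of 80 groups of 4 libraries that were checked, the highest or lowest library was separated from the others by a gap beyond Dixon's 95% limit, where chance alone gives about 4 in independent groups. These groups share the same 8 libraries, and the summed level contains the single genes, so the counts cannot be weighed against each other. In 7 of the 8 the library was female 4. Its summed level of all chaperone genes was 16271 CPM, against 14529.6 to 14737 CPM in the other females. It was also the highest female for Hsp90ab1 (4998 against 3948 to 4096 CPM), Hspa5 (533 against 379 to 404 CPM), Cct5 (629 against 432 to 455 CPM), Cct7 (722 against 495 to 529 CPM) and Cct3 (434 against 349 to 357 CPM). It was the lowest for Hsph1 (202 against 319 to 339 CPM), which has a transcript of 3802 bases, longer than those of the 5 genes that were high. The remaining one was Bag4 in male 1, at 66.3 CPM against 57.6 to 58.9 CPM in the other males.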

How the results depend on the processing

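Counts of chaperone genes by sex moved most with the libraries used and with the glial score. Leaving out each library in turn gave 2 to 4 genes higher in females and 2 to 11 higher in males at an unadjusted p under 0.05, the 2 without male 1 and the 11 without female 4. Over all tested genes the same counts were 399 to 725 and 188 to 728, with the extremes for males in the same fits. After adjustment it gave 0 to 1 in females (Bag1 without female 1) and 0 in males, and sexes without overlap for 2 to 5 genes with females above and 4 to 12 with males above, where all tested genes gave 505 to 817 and 427 to 729. The glial score left 1 and 0 genes, and removal of the length trend gave 7 for males. The replicate block gave 2 for females (Bag1 and Dnaja4) and 4 for males, against 504 and 368 of all tested genes, and changed no adjusted call; the numbers do not pair the samples, as same-numbered libraries correlated at 0.091, -0.107, 0.141 and 0.002 in their deviations from the group means. The cause of these shifts was not tested. Of the 19 single genes refitted under the alternatives, 4 changed sign. Cct5 was at 0.00 with DESeq2 and with its size factors, 0.02 with library size alone, 0.04 with the glial score and -0.14 to 0.06 with libraries left out. Hsp90ab1 ran from -0.01 to 0.11 and Hspa5 from -0.15 to 0.02 with libraries left out, and Cryab was -0.01 with the glial score. Over all alternatives the log2 fold change of Bag1 was 0.85 to 1.36 and its adjusted p 0.00584 to 1.0. Genes near the floor, such as Dnajc5b and Hspa1b, were limited by depth.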

Other observations

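Among the 12518 tested genes, those whose log2 CPM ran most like that of Bag1 over the 8 libraries were Med16, Gnas, Ypel3, Tprgl and Pnrc1. They were chosen after their values were seen, by that likeness, so their agreement is a description. Ypel3 had 76.4, 314, 317 and 411 CPM in females 1 to 4 and 101, 93.4, 90.2 and 124 CPM in males 1 to 4. Pnrc1, a coactivator of nuclear receptors, had 24.2, 76.4, 75.8 and 103 CPM in females and 26.5, 21.2, 29.1 and 34.0 CPM in males. Gnas, which encodes the stimulatory G protein alpha subunit, had 927, 1469, 1458 and 1600.0 CPM in females and 863 to 1031 CPM in males. In each of the 5, female 1 was within or below the range of the males and females 2 to 4 were above every male, as for Bag1. Their positions are on different chromosomes or, for Tprgl and Pnrc1, far from Bag1 on chromosome 4. The gene on the other side of Bag1 from Chmp5 that was tested, B4galt1, had 34.5 to 48.9 CPM in females and 45.4 to 51.8 CPM in males. Hspb2, a muscle small heat-shock protein that was not tested with all libraries, had 0.962, 3.12, 2.29 and 1.85 CPM in females and 0.546, 1.34, 1.49 and 0.887 CPM in males, or 4 to 18 reads per library.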
